A study of Mus musculus with 18 samples.

Results

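The genes described here are the clustered replication-dependent histone genes of the mouse, which are the 71 of 46073 genes in the table whose symbol starts with Hist1h, Hist2h, Hist3h or Hist4h. They comprise 6 genes for the linker histone H1, 20 for H2A, 20 for H2B, 12 for H3 and 13 for H4. Of the 69 with an identifier in GENCODE release M21, 65 are annotated as protein coding, 3 as pseudogenes and 1 as a lincRNA. Names place 56 of the 71 in the Hist1 group, 11 in Hist2, 3 in Hist3 and 1 in Hist4. By position, the Hist1 pseudogene Hist1h2al stands apart, 29390981 bases from the gene Hist1h4m on chromosome 13. The other Hist1 genes placed there start within 2122716 bases of Hist1h4m. Expression was measured by total RNA sequencing of donor T cells 7 days after haematopoietic stem cell transplantation, with Wapl intact (WT) or deleted (KO). Wapl takes the cohesin ring off chromosomes.

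There were 4 groups of 3 libraries. In the syngeneic groups, B6.SJL-Ptprca Pepcb/BoyJ recipients had 9.5 Gy and 8500000 T cells from WT or KO donors. In the allogeneic groups, CByJ.SJL(B6)-Ptprca/J recipients had 8 Gy and 1000000 such cells, so host, radiation and cell dose all changed together and cannot be told apart. All recipients also had 5000000 marrow cells depleted of T cells. The labels describe donors as C57BL/6 females aged 8 to 12 weeks that carried CD45.2, without giving sex or age for KO donors separately. The data go against female donors for KO: 4 Y-linked genes summed to at least 31.4 CPM (counts per 1000000, after scaling) in every KO library and to at most 1.75 in any WT library. Genotype and this donor difference therefore changed together in every comparison of KO with WT. Neither the Cre driver nor the deleted exons were stated. Cells were sorted from spleen as live, CD3+ and CD45.2+, and each library pooled 2 to 4 mice. One label field of the syngeneic KO samples names the allogeneic recipient strain. These samples were grouped by their transplant type. Naive T cells were not analysed here. Columns were tied to libraries by name alone. A further 6 columns bear the allogeneic identifiers behind an added prefix and were not used, so which set of columns holds the allogeneic libraries rests on the exact match of the names.

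Replication-dependent histone genes supply the histones that package newly copied DNA, and their RNA accumulates in S phase. They mostly lack introns, and their RNA usually ends without a poly(A) tail at a short stem-loop, which the protein Slbp binds. Npat, at bodies that form on the gene clusters, drives their transcription. H2A, H2B, H3 and H4 form the nucleosome core, and H1 binds the linker DNA. Because ribosomal RNA was removed and no poly(A) selection is described, transcripts without a tail can enter such libraries.

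The stem-loop is shown first because it is what these transcripts share apart from their coding sequence. It was searched in GENCODE M21 transcripts as 16 bases within 150 bases after the stop codon: 6 paired bases on each side of a loop of 4, starting with GG. Each member was represented by 1 transcript, the shortest with such a stem-loop or, where none held it, the shortest. Among the 48 coding members whose chosen transcript has at least 30 bases after the stop codon, 42 held the stem-loop, in 6 forms. The most common form stood in 24 members of the H1, H2A, H2B and H3 classes, and the form of Hist1h4m stood in 7 H4 members. Capitals mark the stem-loop in 1 example of each of 4 forms.
Hist1h2bj: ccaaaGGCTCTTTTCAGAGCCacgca
Hist1h3e: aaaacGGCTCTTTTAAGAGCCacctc
Hist1h4b: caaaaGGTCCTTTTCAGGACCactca
Hist1h4n: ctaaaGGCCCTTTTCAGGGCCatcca
The 13 H4 genes encode 1 protein of 103 amino acids through 12 different coding sequences. The 12 H3 genes encode 2 proteins, and each of the 6 H1 genes encodes its own.

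Hist1h4m and Hist1h4n matter most for the KO comparisons, and they are near copies of each other. Hist1h4m (ENSMUSG00000069306) is a single-exon H4 gene on the plus strand at chr13:21811746-21812147 of GRCm38. Hist1h4n (ENSMUSG00000069305) lies 20021 bases further along on the minus strand, at chr13:21831767-21832196. Over the 402 bases compared, their transcripts differ at 1 base, G36A, counted from the 5′ end of the Hist1h4m transcript, with the base of Hist1h4m first. The start codon begins at position 39, so that the base lies in the 5′ UTR. Bases 24 to 48 are shown, with the differing base in capitals.
Hist1h4m: agttttgtcttcGtcatgtctggtc
Hist1h4n: agttttgtcttcAtcatgtctggtc
Of all 50-base stretches of the Hist1h4m transcript, 10.2% occur in no other transcript of the annotation and 89.8% also occur in Hist1h4n. The promoters of the pair, compared over 299 bases, differ only at that base as well. Hist1h4m's promoter, from RefSeq on GRCm38.p6 (chr13:21811496-21811795, plus strand), is printed with its TATAAA match in capitals.
Hist1h4m promoter: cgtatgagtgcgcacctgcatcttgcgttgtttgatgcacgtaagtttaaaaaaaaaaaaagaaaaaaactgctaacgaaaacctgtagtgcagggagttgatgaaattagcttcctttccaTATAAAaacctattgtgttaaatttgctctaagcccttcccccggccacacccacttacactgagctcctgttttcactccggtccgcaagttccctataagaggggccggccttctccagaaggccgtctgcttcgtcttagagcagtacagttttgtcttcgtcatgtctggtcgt

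Promoters were available from RefSeq for 62 members (63 promoters, 250 bases before to 50 after the start). Each was searched on both strands for TATAAA, the sequence of a TATA box, for CCAAT, for ATTTGCAT, the octamer, and for AAACACA, known from H1 promoters. TATAAA stood in 55.6% of the members' promoters and in 13.6% of all 32851 promoters. CCAAT stood in 85.7% against 37.4%, in every H1, H2A, H2B and H3 promoter but in only 3 of 12 H4 promoters. The octamer was found in 7 of 18 H2A and 7 of 17 H2B promoters and in none of the other classes (1.74% of all promoters). AAACACA was in 5 of 6 H1 promoters and in 7.18% of all promoters. H2A and H2B genes can lie head to head, as Hist1h2ag and Hist1h2bj do, and the windows of such pairs overlap. The H1 promoter of Hist1h1b (chr13:21780576-21780875, minus strand) holds AAACACA at −117, CCAAT (or its reverse complement) 3 times, and TATAAA at −28. That of Hist1h2bj (chr13:22042948-22043247, plus strand) holds CCAAT in either orientation 5 times and neither TATAAA nor the octamer. Both are shown, with the matches in capitals, because these genes were called in the KO comparison of transplant types given further on.
Hist1h1b promoter: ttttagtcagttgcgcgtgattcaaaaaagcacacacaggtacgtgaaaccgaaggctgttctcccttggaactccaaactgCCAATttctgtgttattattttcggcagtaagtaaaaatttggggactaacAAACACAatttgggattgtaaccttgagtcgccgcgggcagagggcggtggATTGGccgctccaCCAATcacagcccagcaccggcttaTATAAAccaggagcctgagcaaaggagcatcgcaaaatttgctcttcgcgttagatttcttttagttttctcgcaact
Hist1h2bj promoter: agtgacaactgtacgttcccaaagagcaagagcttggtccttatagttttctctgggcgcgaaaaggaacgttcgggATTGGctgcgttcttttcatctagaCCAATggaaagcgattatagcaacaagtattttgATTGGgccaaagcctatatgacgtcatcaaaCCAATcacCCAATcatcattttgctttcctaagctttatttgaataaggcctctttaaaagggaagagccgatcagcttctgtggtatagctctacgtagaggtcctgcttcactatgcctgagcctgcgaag

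Shared sequence limits how reads can be placed on single members. A median of 43.0% of a member's 50-base stretches occurred in no other transcript, 14 members had under 10% of their own, and 4 (Hist1h1a, Hist1h1b, Hist1h1t and Hist2h2be) had every stretch of their own. The read length and the handling of reads with several positions are not given in the sources used here. With the count filter of the fit, 64 members were tested. The 7 others (Hist1h2aa, Hist1h2aj, Hist2h2aa1, Hist2h2aa2, Hist1h2ba, Hist1h2bq and Hist2h3c1) had at most 8 counts in any library. Some of these 7, such as Hist2h2aa1 and Hist2h3c1, have no stretch of their own. Every stretch of these genes also occurs in another gene, so their reads cannot be told apart from those of that gene. The part of this sharing in their low counts was not tested. Hist1h2bq had no stretch of its own either, but only a transcript of 381 bases was examined, against 2015 bases of annotated exon. Hist1h2aa and Hist1h2ba, known from testis, were low with 76.2 and 61.8% of stretches of their own.

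Library totals ran from 45965659 to 89007100 counts, and ribosomal RNA genes took 8.27 to 32.1% of them. Wapl, listed as Wapal, stood at 188 ± 20.8 CPM (counts per 1000000 after TMM scaling, mean ± SD, n = 3 here and below) in syngeneic WT and 135 ± 6.29 in syngeneic KO (edgeR adjusted p = 0.0368), and at 161 ± 6.8 and 140.0 ± 14.6 in allogeneic WT and KO (adjusted p = 0.963). All 10 T cell markers listed were detected, summing to 2662 to 5422 CPM per library. Markers of red cell precursors were detected too, and none found in the table was at 0 in all 3 libraries of a group. The 9 of 11 found by symbol summed to 2194 to 5074 CPM in syngeneic WT but only 26.8 to 105 in its KO counterpart, and to 14.2 to 39.8 (WT) and 16.2 to 23 (KO) in the allogeneic groups. The 9 myeloid markers summed to 205 to 605, 9.41 to 58.9, 292 to 477 and 32.8 to 296 CPM in the same order, and the 7 B cell markers to at most 24.4 CPM. The part of these other cells in the histone values was not tested. In such bulk samples, fewer cells in S phase and less histone RNA per cell cannot be told apart.

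Of all counts, the 71 genes together made up 0.767 ± 0.172% (WT) and 0.826 ± 0.0573% (KO) after syngeneic transplantation, and 0.994 ± 0.143% (WT) and 1.29 ± 0.354% (KO) after allogeneic transplantation. By replicate, the values were 0.597, 0.765 and 0.94% (WT) and 0.847, 0.762 and 0.871% (KO) in the syngeneic groups. In the allogeneic groups they were 1.15, 0.881 and 0.946% (WT) and 1.47, 1.52 and 0.883% (KO). Replicates 1 and 2 of allogeneic KO stood above all other libraries, and replicate 3 stood within the range of allogeneic WT. The composition by class was much steadier than the total. H1 made up 30.7 to 33.3% of histone counts over the 12 libraries, H4 26.4 to 31.1%, H2B 20 to 21.7%, H3 10.6 to 14.1% and H2A 6.24 to 7.71%.

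**Figure D1:**
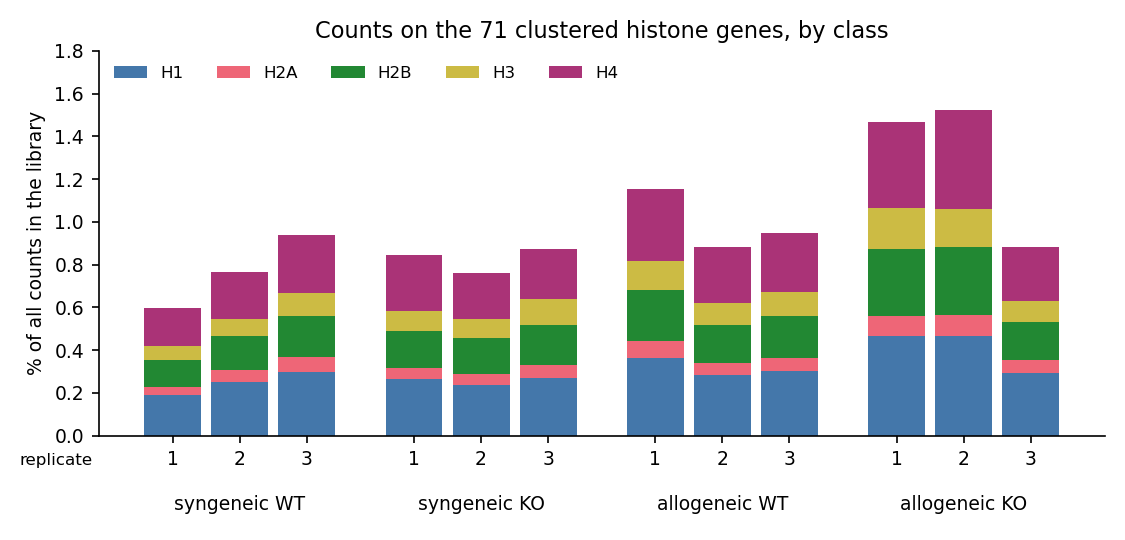
Percentage of all counts in each library (y axis) that fell on the 71 clustered histone genes, stacked by class, for the 3 replicates of each group (x axis). Allogeneic KO replicates 1 and 2 reach 1.47 and 1.52%, and replicate 3 reaches 0.883%.

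Between members, levels differed far more than between groups. Of the 71, 29 had a mean of at least 100 CPM over the 12 libraries, 54 of at least 10 CPM and 12 under 1 CPM. Levels of different genes are compared here as CPM per kb of GENCODE exon, which is low for genes with a long annotated transcript such as Hist1h1d. On this scale Hist1h4f (947) was highest of all, followed among H4 genes by Hist1h4h (694). The order depends on the annotated length. Hist1h4d (602 CPM) and Hist1h4c (426 CPM) had more counts than Hist1h4f (370 CPM). Their GENCODE exons span 1138 and 820 bases, against 391 in Hist1h4f, but their RefSeq lengths are 402 and 375, against 383. Hist1h1b (719.9) and Hist1h1c (712) led the linker histones on this scale. Here too, Hist1h1c (1111 CPM) and Hist1h1d (781 CPM) had more counts than Hist1h1b (535 CPM). Their GENCODE exons span 1560 and 7425 bases, against 743, but their RefSeq lengths are 725 and 776, against 794. Hist2h2bb (ENSMUSG00000105827, 647) and Hist1h2bb (627) led H2B, but every stretch of that Hist2h2bb entry is shared with an overlapping gene. For H3 the highest were Hist1h3e (315) and Hist1h3f (247), and for H2A Hist1h2ak (284) and Hist1h2ab (159). Hist3h2a, another H2A gene, had more counts than Hist1h2ak (186 against 112 CPM). Its GENCODE exons span 2146 bases, against 393, but its RefSeq length is 508, against 536. Hist1h1t, a linker histone known from testis, had 0.675 CPM per kb.

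Within groups, the histone genes of a library shifted together. For each of the 63 tested members other than Hist1h4m, log2 CPM was compared with the mean of its group. In allogeneic KO replicate 3, all 63 members were below the group mean, with a median of −0.68. The same replicate was also low for 38 genes of S phase and DNA replication, with a median of −0.31. In syngeneic KO replicate 2, likewise, 63 of 63 members were below the mean (median −0.22, S phase genes −0.07), and in allogeneic WT replicate 1 all 63 were above it (median 0.37, S phase genes 0.18). S phase genes did not always shift alike. In allogeneic WT replicate 3, 58 of 63 members were below the mean (median −0.12), with S phase genes at 0.04. The medians in allogeneic KO replicate 2 were 0.36 for histone genes and 0.05 for S phase genes. Syngeneic WT replicate 3 had 61 of 63 members above its mean. Members therefore do not vary independently of each other within a group, and a count of members with the same sign is not a count of independent observations.

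**Figure D2:**
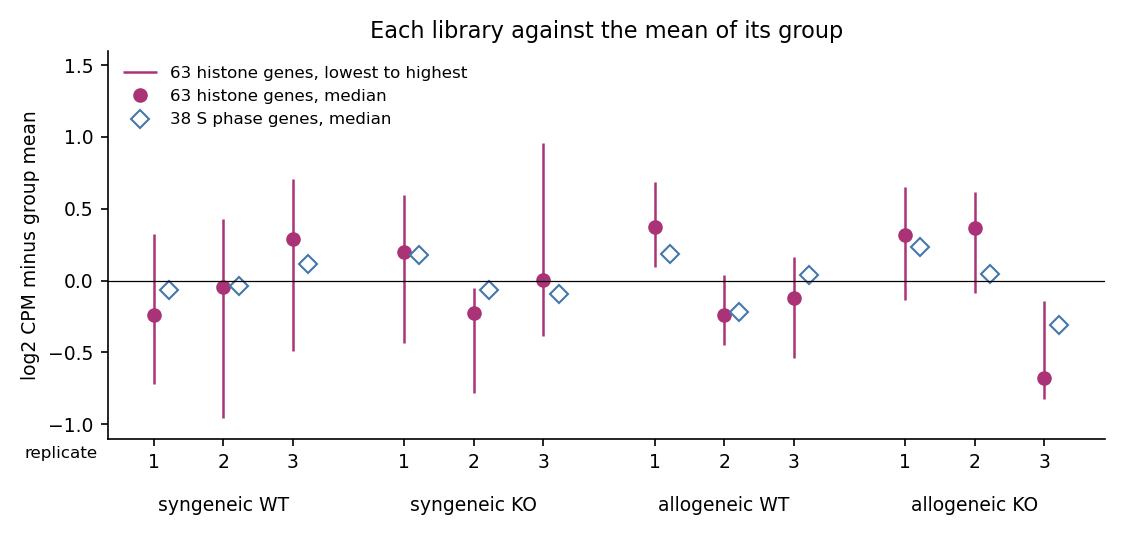
log2 CPM of each library minus the mean of its group (y axis) for the 3 replicates of each group (x axis). Filled points give the median over 63 histone genes, lines their lowest to highest value, and open diamonds the median over 38 S phase genes. Allogeneic KO replicate 3 lies lowest, at −0.68 for histone genes and −0.31 for S phase genes.

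The comparison of KO with WT asks how RNA levels differed between the genotypes within each transplant type. KO and WT libraries also differed throughout in RNA from the Y chromosome, so loss of Wapl and this donor difference cannot be told apart. Hist1h4m was the 1 member called higher in KO at an edgeR adjusted p under 0.05 in the syngeneic groups, where 0.743% of the 18447 tested genes were called higher. It was also the 1 member called higher in the allogeneic groups, against 0.0434% of tested genes. No member was called lower in either. Its raw counts were 12, 13 and 19 (WT) and 2900, 1740 and 1578 (KO) in the syngeneic groups. In the allogeneic groups they were 13, 6 and 8 (WT) and 3408, 5045 and 2331 (KO). WT and KO libraries did not overlap in either transplant type. In CPM, 0.244 ± 0.071 stood against 39.8 ± 16 in the syngeneic groups (log2 fold change 7.34 ± 0.52, SE, adjusted p = 4.08e-05) and 0.141 ± 0.0824 against 65.9 ± 28 in the allogeneic groups (8.97 ± 0.56, adjusted p = 5.72e-05). As ratios of mean CPM these are 163-fold and 469-fold. The call held in every alternative fit, with a log2 fold change of 6.93 to 7.59 (syngeneic) and 8.48 to 9.48 (allogeneic) when single libraries were left out.

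Hist1h4n, the near copy, stood lower in KO by less. Its syngeneic values were 56.7, 67.5 and 78 CPM in WT and 53.5, 40.9 and 37.1 CPM in KO. All 3 KO values lay below all 3 WT values, but the difference was not called (log2 fold change −0.62 ± 0.27, edgeR adjusted p = 0.333). In allogeneic WT it stood at 105, 67.4 and 71.2 CPM and in allogeneic KO at 68.2, 87.1 and 38.3 CPM, with overlap between the groups (−0.33 ± 0.27, adjusted p = 0.963). The sum of both genes overlapped between WT and KO. It was 56.9, 67.7 and 78.4 CPM in syngeneic WT and 112, 70.8 and 68.4 CPM in syngeneic KO, and 105, 67.5 and 71.4 against 148, 171 and 72 CPM in allogeneic WT and KO. As a ratio of means the sum was 1.24-fold and 1.6-fold higher in KO, while the summed CPM of the other 11 H4 genes was 1.22-fold and 1.43-fold higher.

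Set against those 11 H4 genes, the pair took 2.93 to 3.52% of their summed CPM in the 12 libraries. WT and KO overlapped in the syngeneic groups (3.32 ± 0.156 and 3.35 ± 0.118%). In the allogeneic groups all 3 KO values lay above all 3 WT values (3.02 ± 0.0754% in WT, 3.36 ± 0.219% in KO). The division between the copies differed by much more. Hist1h4m held 0.357 ± 0.0489% of the pair's CPM in syngeneic WT and 0.165 ± 0.0656% in allogeneic WT. In KO it held 46.7 ± 5.01% (syngeneic) and 50 ± 3.65% (allogeneic), with single libraries between 42.3 and 54%. These shares are descriptions, with no test. How reads that match both copies were assigned is not given in the sources used here, and the part of that assignment in these values was not tested. Whether WT and KO donors carry the same base at the position that separates the copies was not tested either, so the 163-fold and 469-fold values compare counts as the table assigns them to Hist1h4m.

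**Figure D3:**
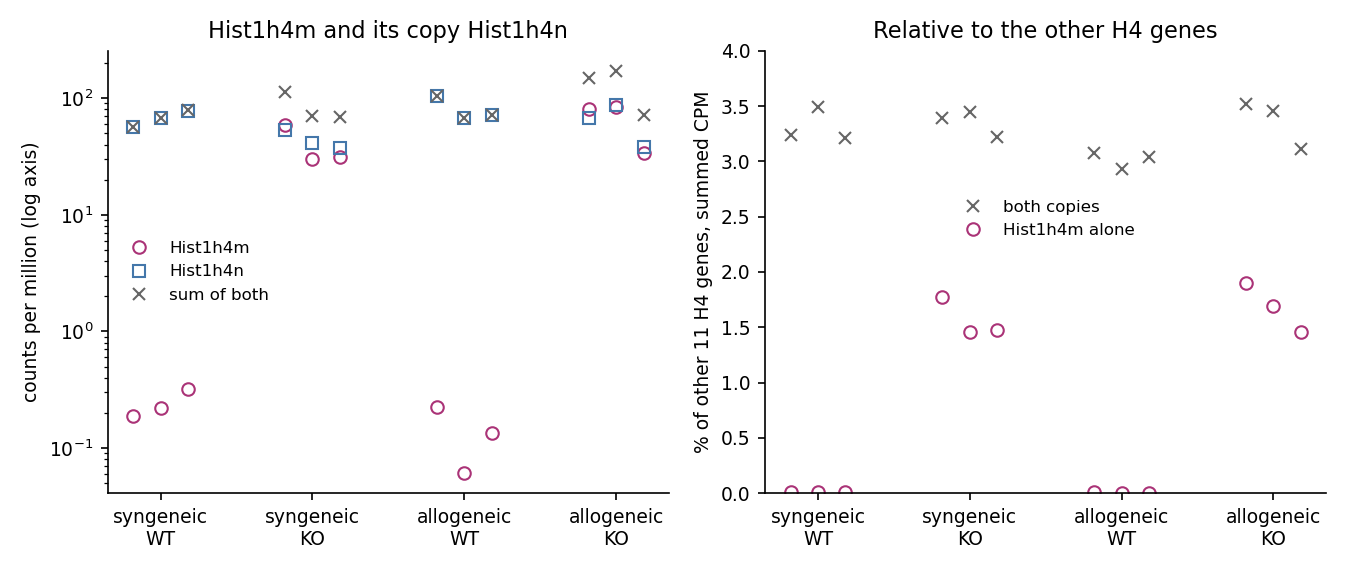
Left, CPM on a log axis of Hist1h4m, its near copy Hist1h4n and their sum, with 1 point per library for the 4 groups on the x axis. Right, Hist1h4m alone and both copies together as a percentage of the summed CPM of the other 11 H4 genes. Hist1h4m is at most 0.324 CPM in WT and at least 29.9 CPM in KO, while both copies together stay between 2.93 and 3.52%.

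No other gene next to Hist1h4m was called. Hist1h2ao, an H2A gene 1281 bases before it, is a near copy of Hist1h2ap, the H2A gene that follows Hist1h4n. Hist1h2ao stood at 0.104 ± 0.0195 CPM in syngeneic WT and 0.13 ± 0.0966 in syngeneic KO, and at 0.196 ± 0.0797 and 0.203 ± 0.0705 in the allogeneic groups. Hist1h2ap stood at 30.6 ± 5.86, 37 ± 5.95, 39.7 ± 11.1 and 49.6 ± 16.1 CPM in the same order. In this second pair of copies, Hist1h2ao stood at or under 0.282 CPM and Hist1h2ap at or above 26.1 CPM in all 12 libraries, in KO as in WT. The H2B pair Hist1h2bq and Hist1h2br share every stretch of the 381-base transcripts examined, which are shorter than their annotated exons. They were at most 0.133 and 1.45 CPM in any library. Hist1h2bp, 24285 bases before Hist1h4m, had log2 fold changes of 0.33 ± 0.26 and 0.56 ± 0.26 and was not called.

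**Figure D4:**
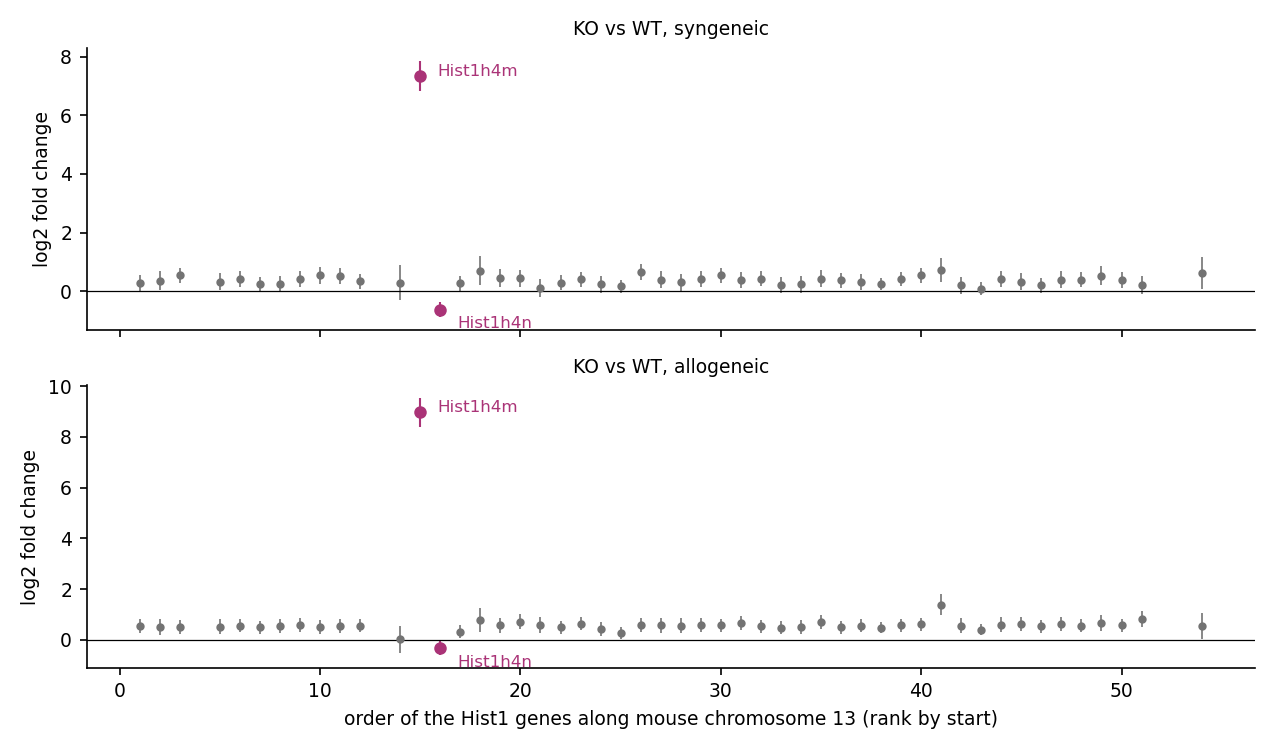
Log2 fold change of KO against WT (y axis, bars are SE) for the tested Hist1 genes that GENCODE places on mouse chromosome 13, in order of their start (x axis). Ranks do not show distance, and the last point, Hist1h2al, lies 29390981 bases from Hist1h4m. Hist1h4m stands at 7.34 (top) and 8.97 (bottom), and Hist1h4n, the next gene, at −0.62 and −0.33.

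The 5 tested genes whose log2 CPM was most like that of Hist1h4m over the 12 libraries were Gm33707 (Pearson r = 0.973), Ddx3y (0.966), Eif2s3y (0.965), Gm13408 (0.948) and Kdm5d (0.937). Ddx3y, Eif2s3y and Kdm5d are Y-linked. The 4 Y-linked genes listed (with Uty) summed to 0.934 to 1.75 CPM in syngeneic WT and 0.733 to 1.04 in allogeneic WT. They summed to 32.3 to 116 CPM in syngeneic KO and 31.4 to 138 in allogeneic KO, so that KO and WT libraries also differed in RNA from the Y chromosome. The part of that difference between donors in the Hist1h4m values was not tested.

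For the other members, KO values were mostly above WT values by less than the fit could call. In the syngeneic groups 59 of the 64 tested members had a positive log2 fold change, against 57.0% of all tested genes. The members' median was 0.35, against 0.06 over all tested genes. Without syngeneic KO replicate 1 the median was 0.20, and leaving out other single libraries gave 0.25 to 0.50. At an unadjusted p under 0.05 there were 3 members (Hist1h4m, Hist1h3g and, lower, Hist1h4n), against 14.0% of all genes. Complete separation of KO above WT was seen in 9 tested members, against 13.2% of tested genes, a share near that background. Hist1h3g, an H3 gene, stood at 21.1, 21.4 and 32.7 CPM in syngeneic WT and 42.4, 36 and 40.5 in syngeneic KO. Its groups did not overlap, and it was not called (0.66 ± 0.27, edgeR adjusted p = 0.303). Hist1h1a, a linker histone gene, stood at 127, 212 and 225 CPM in WT and 260.4, 193 and 199 in KO, with overlap (0.21 ± 0.31, adjusted p = 0.788).

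Libraries of the syngeneic groups with the same replicate number deviated together, but so did WT replicate 2 and KO replicate 3. No label states a pairing, so the replicate block was chosen from the same data. A fit of the 6 syngeneic libraries alone with this block called 6 members higher, against 2.16% of tested genes. They were Hist1h4m, Hist1h3g (log2 fold change 0.65, edgeR adjusted p = 0.0176), Hist1h2bc (0.52, 0.0181), Hist1h3e (0.51, 0.023), Hist1h3i (0.51, 0.0267) and Hist2h3b (0.40, 0.048). Apart from Hist1h4m and the H2B gene Hist1h2bc, these encode H3. Of the 50-base stretches, 45.9% in Hist1h3g, 26.6% in Hist1h3e, 12.4% in Hist1h3i and 0% in Hist2h3b occurred in no other transcript. The part of shared reads in these calls was not tested. Beside these fold changes stand the red cell precursor markers, of which 8 of 9 tested were called lower in syngeneic KO. Their part in the histone values was not tested.

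In the allogeneic groups 63 of 64 tested members had a positive log2 fold change, against 55.1% of all tested genes, the exception being Hist1h4n. The median was 0.54 against 0.03 over all tested genes, and 15 members had an unadjusted p under 0.05, against 4.18% of genes. Both depended on single libraries. Without allogeneic KO replicate 3 or allogeneic WT replicate 1, the median was 0.82 or 0.75, and 57 or 50 members had such a p, against 12.3 and 5.58% of genes. Without allogeneic KO replicate 1 or 2, it was 0.41 or 0.35, with 2 or 3 members, against 3.86 and 3.7%. Without allogeneic WT replicate 2 or 3, it was 0.40 or 0.47, with 2 members each, against 2.32 and 3.59%. Hist1h4m remained the 1 member called in each of these fits. Apart from Hist1h4m, the smallest adjusted p was 0.738, for Hist1h1t. Hist1h1t stood at 0.382, 0.265 and 0.321 CPM in allogeneic WT and 1.27, 0.767 and 0.521 in allogeneic KO, without overlap and under 2 CPM throughout (log2 fold change 1.39 ± 0.41). It and Hist1h4m were the 2 tested members with all KO libraries above all WT libraries, against 3.29% of tested genes. Hist2h2aa1, which was not tested, was separated as well, at no more than 0.117 CPM in any of these libraries. Hist1h1a stood at 241, 138 and 173 CPM in WT and 373, 420.1 and 179 in KO. Replicate 3 of KO lay within the WT range, and the gene was not called (0.82 ± 0.31, edgeR adjusted p = 0.963). Hist1h4d, the H4 gene with the most counts, behaved alike, at 753, 511 and 516 and 997, 979 and 526 CPM (0.49 ± 0.25, adjusted p = 0.963).

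By class, the median log2 fold change of KO against WT in the syngeneic groups was 0.33 for H1, 0.30 for H2A, 0.32 for H2B, 0.43 for H3 and 0.30 for H4. In the allogeneic groups it was 0.59, 0.50, 0.55, 0.57 and 0.55 in the same order. Differences between classes were not tested. A few genes went another way in the syngeneic groups. Hist2h2be, an H2B gene with sequence of its own throughout, stood at 4.84, 6.86 and 5.89 CPM in WT and 5.27, 4.04 and 3.63 in KO (−0.44 ± 0.21, edgeR adjusted p = 0.361), with overlap. Hist3h2ba, an H2B gene on chromosome 11, stood at 13.9, 28.7 and 28.6 and 24.3, 17.6 and 17.7 CPM (−0.26 ± 0.32, adjusted p = 0.742). Neither was called, and both were chosen after their values were seen.

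The comparison of allogeneic with syngeneic libraries asks how T cells that met foreign tissue differed from those that did not. In WT, edgeR called no member, while 16.4% of tested genes were called higher. At an unadjusted p under 0.05 there were 8 members, all higher, against 43.2% of genes, and DESeq2 called 2 members higher (Hist1h2bj and Hist1h3g), against 15.5% of its genes. With the 6 WT libraries fitted alone, 13 members were called higher, against 22.6%. The median log2 fold change was 0.39 against −0.03 over all genes, and 57 of 64 were positive, against 48.3% of all genes. Without allogeneic WT replicate 1 the median was 0.20, and leaving out other single libraries gave 0.29 to 0.54. The 8 members at an unadjusted p under 0.05 became 0, 14 and 5 without allogeneic WT replicates 1, 2 and 3 (against 35.9, 38.2 and 37.9% of genes), and 2, 1 and 15 without syngeneic WT replicates 1, 2 and 3 (against 40.7, 34.0 and 35.9%). Complete separation of allogeneic above syngeneic WT was seen in 13 tested members, against 28.2% of tested genes. The shares called, at an unadjusted p under 0.05 or completely separated did not exceed those of the genes at large, unlike the share with a positive log2 fold change. Hist1h2bj, an H2B gene, stood at 98.7, 122 and 147 CPM in syngeneic WT and 247, 165 and 182 in allogeneic WT. Its groups did not overlap, and its adjusted p of 0.0566 by edgeR was the smallest of any member (0.69 ± 0.26). Below 0 stood Hist2h2be, at 4.81, 4.42 and 4.29 CPM in allogeneic WT, without overlap with syngeneic WT (−0.38 ± 0.21, adjusted p = 0.174).

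In KO, 6 of the 64 tested members were called higher in allogeneic than in syngeneic libraries, against 13.2% of tested genes. That share of members did not exceed the share of the genes at large. The 6 members were the linker histone genes Hist1h1b and Hist1h1e, the H2B genes Hist1h2bh, Hist1h2bj and Hist1h2bk, and the H4 gene Hist1h4b. Hist1h1e stood at 435, 344 and 374 CPM in syngeneic KO and 807, 663 and 448 in allogeneic KO. Its groups did not overlap (log2 fold change 0.74 ± 0.21, edgeR adjusted p = 0.0241), and it was the 1 tested member with complete separation, against 17.0% of genes. Hist1h1b stood at 565, 398 and 404 and 901, 1031 and 491 CPM (0.83 ± 0.28, adjusted p = 0.0477). Hist1h2bj stood at 185, 152 and 152 and 365, 373 and 178 CPM (0.90 ± 0.26, adjusted p = 0.0226). In both genes, allogeneic KO replicate 3 lay inside the range of the syngeneic KO libraries and replicates 1 and 2 lay well above it. Hist1h2bk (0.88 ± 0.29, adjusted p = 0.046), Hist1h2bh (0.75 ± 0.25, 0.0448) and Hist1h4b (0.76 ± 0.26, 0.05) passed the threshold narrowly.

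These 6 calls depended on single libraries and on the fit. Without allogeneic KO replicate 3, 50 members were called higher, against 15.4% of tested genes, and without syngeneic KO replicate 1, 20 were, against 17.4%. Leaving out allogeneic KO replicate 1, syngeneic KO replicate 2 or syngeneic KO replicate 3 left 0 members called by edgeR (6, 6 and 13 at an unadjusted p under 0.05), against 10.7, 8.52 and 9.46% of genes called higher. Leaving out allogeneic KO replicate 2 left 1, against 12.1%. With the 6 KO libraries fitted alone, none was called by edgeR (22 at an unadjusted p under 0.05), against 8.55% of genes. DESeq2 called 16 higher, against 13.8% of its genes. Among the 64 tested members, 63 had a positive log2 fold change, against 48.5% of all genes. The members' median was 0.59, against −0.02 over all genes, and 26 had an unadjusted edgeR p under 0.05, against 37.0% of genes. That 26 ranged from 6 (without allogeneic KO replicate 1 or 2 or syngeneic KO replicate 2) to 56 (without allogeneic KO replicate 3).

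**Figure D5:**
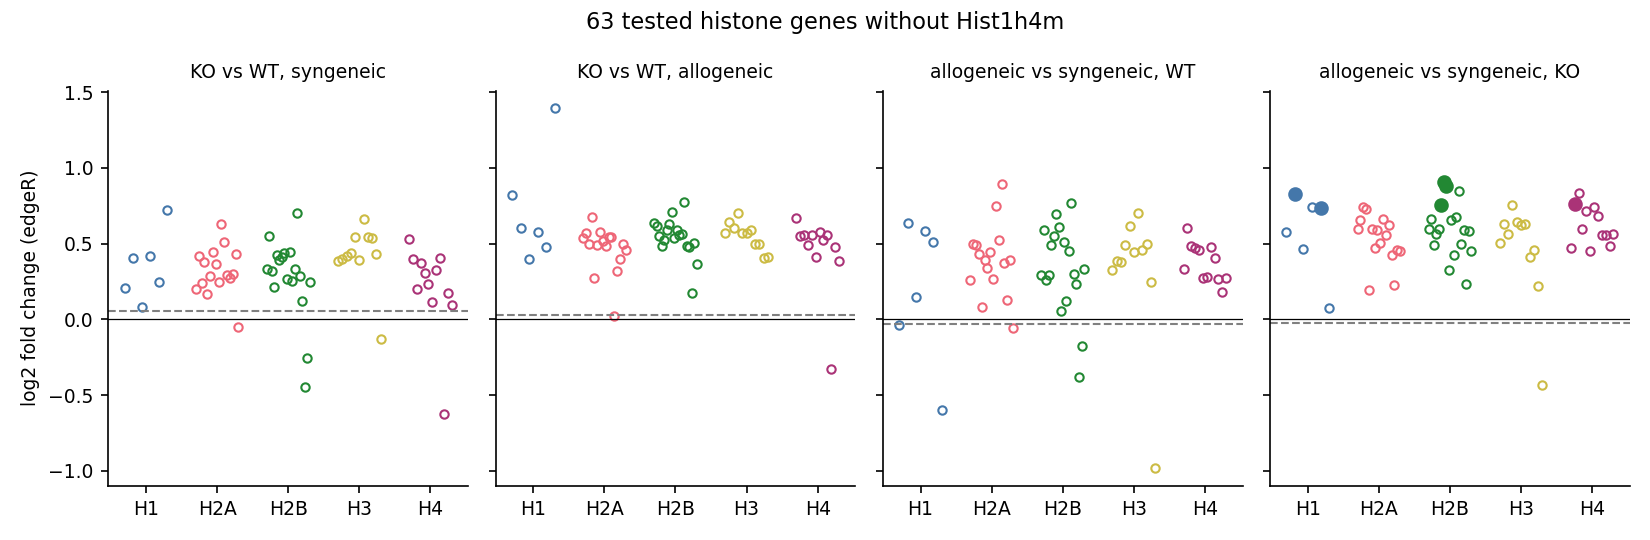
Log2 fold change (y axis) of the 63 tested histone genes other than Hist1h4m, by class (x axis), in the 4 comparisons. Filled points were called at an adjusted p under 0.05, and dashed lines are the median over all tested genes. The medians over these 63 genes are 0.33, 0.54, 0.39 and 0.59 from left to right.

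Whether the KO effect differed between transplant types was tested as an interaction. No member was called by edgeR, where 0.428% of tested genes were called with a higher effect in the allogeneic groups. None had an unadjusted p under 0.05, against 6.2% of genes, and DESeq2 called none, against 1.25%. For Hist1h4m the difference of the log2 fold changes was 1.63 ± 0.78 (edgeR adjusted p = 0.847). The WT levels behind it rest on 6 to 19 counts a library. For Hist1h1a the difference was 0.61 ± 0.44 (edgeR unadjusted p = 0.194).

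Other genes of the pathway were taken from lists. Of 29 genes that transcribe and process histone RNA or are linked to its regulation, 1 was called in syngeneic KO against WT. It was E2f2, a cell cycle transcription factor that was lower (221 ± 40 against 141 ± 7.6 CPM, log2 fold change −0.64 ± 0.15, edgeR adjusted p = 0.0285). Over all 18447 tested genes, 485 were called lower and 137 higher there. In the allogeneic groups none of the 29 was called (1 at an unadjusted edgeR p under 0.05, against 4.18% of genes). Slbp, which binds the stem-loop, stood at 98.6 ± 4.69 and 108 ± 12.1 CPM in syngeneic WT and KO and at 88.4 ± 6.79 and 117 ± 19 in allogeneic WT and KO. Npat stood between 40.6 and 46.9 CPM in the 4 group means. Neither was called in any comparison.

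Between transplant types, 2 of the 29 were called higher and 4 lower in WT, and 3 higher and 1 lower in KO. Over all 18447 tested genes, 3023 were called higher and 2932 lower in WT, and 2439 and 2061 in KO. The shares in the list did not exceed these. Zfp473, a zinc finger protein of the histone pre-mRNA processing complex, was higher in allogeneic libraries in both genotypes (WT 0.64 ± 0.16, edgeR adjusted p = 0.0085; KO 0.62 ± 0.16, adjusted p = 0.0124). So was Cpsf2, a subunit of the cleavage complex (WT 0.45 ± 0.10, edgeR adjusted p = 0.00455; KO 0.44 ± 0.10, adjusted p = 0.00726). E2f1, a transcription factor of S phase entry, was lower in both (−0.55 ± 0.13, edgeR adjusted p = 0.00564, and −0.51 ± 0.13, adjusted p = 0.012). E2f2 was called higher in allogeneic KO (0.45 ± 0.15, edgeR adjusted p = 0.0389).

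Among 26 histone chaperones and carriers, none was called in KO against WT. At an unadjusted edgeR p under 0.05 there were 3 and 2 in the syngeneic and allogeneic groups, against 14.0 and 4.18% of genes. In allogeneic against syngeneic libraries, 2 of the 26 were called lower in WT and 1 in KO. Over all 18447 tested genes, 2932 and 2061 were called lower there. Ipo4, an importin that carries histones, was lower in allogeneic libraries of both genotypes (WT −0.97 ± 0.16, edgeR adjusted p = 7.05e-04; KO −1.16 ± 0.17, adjusted p = 2.40e-04). Asf1a, a chaperone of H3 and H4, was called lower in WT (−0.44 ± 0.15, edgeR adjusted p = 0.0377) and not in KO (−0.33 ± 0.15, adjusted p = 0.117). None of the 26 was called in the interaction, and none had an unadjusted p under 0.05 there.

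Of 11 variant histone genes outside the clusters, none was called in KO against WT. There 3 in the syngeneic and 0 in the allogeneic groups had an unadjusted edgeR p under 0.05, against 14.0 and 4.18% of genes. Between transplant types, 3 of the 11 were called higher in WT and 2 in KO, against 16.4 and 13.2% of tested genes. H1f0, the linker histone variant of slowly dividing and differentiated cells, was higher in allogeneic WT (19.5 ± 2.48 against 63.4 ± 7.77 CPM, 1.70 ± 0.20, edgeR adjusted p = 4.49e-05) and in allogeneic KO (1.10 ± 0.20, adjusted p = 0.00149). Cenpa, the H3 variant of centromeres, was higher in both as well (0.75 ± 0.15, edgeR adjusted p = 0.00208, and 0.97 ± 0.15, adjusted p = 4.78e-04). H2afv passed the threshold narrowly in WT (0.72 ± 0.26, edgeR adjusted p = 0.0498).

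The 38 S phase genes, which include Slbp, E2f1, Ccne1 and Ccne2 of the processing list, were the nearest readout of replication. None was called in KO against WT in either transplant type (edgeR, 4 and 6 at an unadjusted p under 0.05, against 14.0 and 4.18% of genes). Their median log2 fold change was 0.22 with 33 positive in the syngeneic groups and 0.31 with 37 positive in the allogeneic groups. Over all tested genes, 57.0 and 55.1% were positive. The histone medians were 0.35 and 0.54. Between transplant types the S phase median was −0.04 in WT. There 2 were called higher (Rpa2 and Dut), against 16.4% of tested genes. A further 3 were called lower (Cdc6, Ccne2 and E2f1), against 2932 of the 18447 tested genes. In KO the S phase median was 0.06, with Rpa2 called higher, against 13.2% of tested genes. E2f1 was called lower, against 2061 of the 18447 tested genes. The histone medians were 0.39 in WT and 0.59 in KO. Pcna, the sliding clamp of DNA polymerase, stood at 129 ± 2.39, 153 ± 38.5, 111 ± 21.4 and 153 ± 49.1 CPM (WT and KO of the syngeneic groups, then of the allogeneic groups), and was called in none of the comparisons. Mki67, a marker of dividing cells, stood at 1492 ± 405, 1089 ± 130.3, 1227 ± 25.9 and 1416 ± 510.3 CPM in the same order and was not called either.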

How the data were processed

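The authors deposited 1 table of expected counts for each gene and library. GRCm38 and the tools Cuffdiff 2.2.1, Cufflinks, TopHat2 2.0.13 and Bowtie2 2.2.1 stand in the submitters' processing notes. Which tool made the counts, the annotation, the strand setting and the handling of reads that match several genes are not given in the sources used here. Values were rounded to whole numbers. Of 18 labelled samples, 12 matched a column by name. The 6 columns that matched no sample were not used. They bear the identifiers of the allogeneic libraries with "allo" in front, and the 6 naive samples matched no column, so the allogeneic values rest on names alone.

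All 12 libraries were fitted in 1 edgeR 4.0.16 quasi-likelihood model (R 4.3.3) with a mean per group, TMM scaling and filterByExpr (count minimum 10), which kept 18447 genes and left 8 residual degrees of freedom. A gene was called where its two-sided p, adjusted over these genes by Benjamini-Hochberg, was under 0.05. The biological coefficient of variation was 0.249. The scripts were tested on simulated data. Alternatives were DESeq2 1.42.0, RLE scaling, no filter, a replicate block, fits of the compared groups alone, ribosomal RNA genes left out, and each library left out. Same-numbered libraries of syngeneic WT and KO deviated together (r = 0.545, 0.17 and 0.335), but so did WT replicate 2 and KO replicate 3 (r = 0.363). Only the alternatives with a replicate block took those numbers to pair libraries, which no label states. In each of the other comparisons the same-number values had mixed signs, as for syngeneic and allogeneic KO (r = 0.235, −0.317 and 0.423).

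The members and lists were chosen with earlier results of these data known. Members named are Hist1h4m and Hist1h1a, the called members (3 with the smallest p per class and comparison), the 2 highest per class in CPM per kb, the 3 on each side of Hist1h4m, and, after their values were seen, others given as not called. In each list of other genes, the 3 called with the smallest p per direction and preset landmarks were named. The stem-loop was searched in GENCODE M21 transcripts, since no genome was used.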

Additional observations from a re-analysis of the deposited data

How the results depend on the processing

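In KO against WT, 1 member was called in both transplant types under every setting except one: with the replicate block in the 6 syngeneic libraries alone, 6 were called, against 2.16% of tested genes called higher. In the comparison of transplant types in WT (0 called, against 16.4% of genes higher), DESeq2 called 2 (15.5%), the groups compared alone 13 (22.6%), the same with the replicate block 3 (21.2%), and leaving out single libraries 0 to 1 (11.3 to 14.3%). In KO (6 called, 13.2%), DESeq2 called 16 (13.8%), the compared groups alone 0 (8.55%), the same with the replicate block 1 (7.23%), the replicate block in all 12 libraries 2 (13.7%), no filter 2 (7.7%), and leaving out single libraries 0 to 50 (8.52 to 17.4%). No member was called for the interaction under any setting. The cause of these differences was not tested. Over all genes, calls in syngeneic KO against WT went from 622 to 1287 with the block in those libraries alone, and from 260 to 742 with single libraries left out. With ribosomal RNA genes left out, the share of counts on histone genes was 0.977% (WT) and 1.13% (KO) after syngeneic and 1.14% (WT) and 1.56% (KO) after allogeneic transplantation, so that syngeneic KO and allogeneic WT, at 0.826 and 0.994% of all counts, came close to each other. No member's log2 fold change among those called, nor that of Hist1h4n in KO against WT, changed sign under any setting. Of the 6 members called in KO, Hist1h1e and Hist1h2bj lost the call under 5 of 13 settings and the other 4 under 8. Depth limits Hist1h4m in WT, at 6 to 19 counts a library, and the 7 members left untested, at 8 counts or fewer.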
